A study of Schizosaccharomyces pombe with 23 samples.

Results

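The centromeres of the 3 fission yeast chromosomes were followed in polymerase usage sequencing (Pu-Seq) libraries, in which ribonucleotides mark the strand that a chosen DNA polymerase made. The centromeres were taken by position as the 300-bp bins between 3750 and 3792 kb on chromosome I, 1600 and 1650 kb on chromosome II, and 1066 and 1138 kb on chromosome III. This gave 140, 167 and 240 bins, so 547 of the 41909 bins of the genome. No measured value entered this choice.

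Each strain carried a polymerase that leaves ribonucleotides in the DNA it makes, either Pol δ (cdc6-L591G) or Pol ε (cdc20-M630F), and rnh201-RED, a ribonucleotide excision repair-defective form of a subunit of RNase H2, so that the ribonucleotides stay in place. All strains also shared the RTS1 replication fork barrier on chromosome II together with the ura4-D18, ade6-704 and leu1-32 alleles. The barrier was inactive in RFB OFF strains, in which rtf1 was replaced (rtf1::Nat), and active in RFB ON strains, in which rtf1 was driven by the ADH1 promoter (Nat:ADH1:rtf1). It lies outside all 3 centromeres and their flanks. The backgrounds were wild type (WT), a deletion of nup132, which encodes a nucleoporin of the nuclear pore Y complex, and a deletion of rpn10, which encodes a ubiquitin receptor of the proteasome. By label, the deletions are Hygro-marked in KK1901, KK1902, KK1905 and KK1906 (nup132::Hygro) and in KK1868, KK1869, KK1894 and KK1895 (rpn10::Hygro). The other deletion strains are labelled without a marker. Both forms were pooled in each background, except where Hygro-marked deletions are named. Cells were grown at 30°C to log phase. The counts are mapped ends of reads on each strand, called Watson and Crick here for the forward and reverse files. WT RFB OFF held 1 Pol δ and 2 Pol ε libraries, WT RFB ON 1 and 1, nup132Δ RFB ON 4 and 4, rpn10Δ RFB ON 3 and 3, and nup132Δ RFB OFF 1 Pol δ library. The sources used here do not say which libraries came from separate cultures, so p-values measure the spread between libraries, which may be technical, and WT in each state rests on a single Pol δ library.

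The 20 libraries used held 5396348 to 38663174 counts (median 12121763), of which 1.20 to 1.82% lay in the centromeres. No centromere bin was empty, and the emptiest held 31 counts over both strands. Another 3 libraries held 987 to 7167 counts in total and were left out. Some libraries went against their labels. The rpn10 gene kept 53.4 and 51.6% of the WT RFB ON counts in the Pol ε strains KK1894 and KK1895, which are labelled rpn10 deletions, and 0 to 0.135% in the other 4. The rtf1 gene, which should be present in RFB ON strains, held 8.08 and 8.68% in KK1581 (Pol δ) and KK1582 (Pol ε), both labelled rpn10Δ RFB ON, against 4.82 to 7.25% in the RFB OFF libraries. All 6 are therefore called libraries labelled rpn10Δ RFB ON below, and the main results that rest on them are also given without KK1894 and KK1895. Without that pair, KK1582 is the only Pol ε library left in this group, and KK1581 is among its Pol δ libraries. Such values therefore rest in part on libraries whose rtf1 counts go against the RFB ON label. The nup132 gene held 1.15 to 2.09% in the nup132Δ libraries. The genome-wide strand asymmetry of a library, set against the WT RFB OFF profile, had a slope of 0.46 to 0.47 in WT Pol δ libraries and of −0.51 to −0.54 in WT Pol ε libraries. It was 0.0773 in KK1894 and 0.0554 in KK1895, the sign of a Pol δ library, and −0.15 to −0.45 in the nup132Δ Pol ε libraries.

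A fission yeast centromere has a central core, on which the kinetochore forms, flanked by inner repeats and then by outer repeats in inverted orientation, which are packed into heterochromatin. Genes for tRNAs mark boundaries between these domains. Below, the core of a centromere means a stretch around its middle with low counts, not this sequence domain. Centromeres are known to replicate early in S phase in this yeast. Pol ε makes most of the leading strand and Pol δ most of the lagging strand, so the share of Pol δ on each strand gives the direction of the forks. A zone in which forks start appears as a rise of the rightward fork share from left to right, and a zone in which forks meet appears as a fall.

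Repeats limit what can be read here. The last deposited bin lay 0.117 kb past the reference chromosome end on chromosome I, but the difference was 2.05 kb on chromosome II and −1.73 kb on chromosome III, so the reference (RefSeq ASM294v3) was used for centromere I only. There 84.9% of positions start a 50-mer that occurs more than once in the genome, against 0.421% in the flanks, and 72.4% start a 50-mer with an inverted copy on the other side of the centromere. Of the 140 bins, 13 had only unique 50-mers and 93 had none. How reads with several matches were placed is not given in the sources used here. A value in a repeat can therefore be an average over copies, and likeness between the arms of a centromere, or between centromeres, can arise in mapping.

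A few stretches of centromere I show this sequence background (reference strand unless stated, 5′ to 3′, in lower case). The first is the single fully unique bin of the core, chrI:3769201-3769500, shown because it separates the arms and its counts cannot come from another copy.
central unique bin: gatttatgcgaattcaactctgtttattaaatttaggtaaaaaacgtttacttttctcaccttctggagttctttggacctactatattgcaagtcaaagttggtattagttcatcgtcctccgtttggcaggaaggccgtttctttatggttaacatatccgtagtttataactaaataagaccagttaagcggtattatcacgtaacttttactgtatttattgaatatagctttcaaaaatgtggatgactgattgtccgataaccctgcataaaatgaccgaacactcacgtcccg
The second is the bin with the most copies, chrI:3781201-3781500 in the right outer repeat, whose 50-mers occur 10.8 times on average. It is 75% A and T.
most repeated bin: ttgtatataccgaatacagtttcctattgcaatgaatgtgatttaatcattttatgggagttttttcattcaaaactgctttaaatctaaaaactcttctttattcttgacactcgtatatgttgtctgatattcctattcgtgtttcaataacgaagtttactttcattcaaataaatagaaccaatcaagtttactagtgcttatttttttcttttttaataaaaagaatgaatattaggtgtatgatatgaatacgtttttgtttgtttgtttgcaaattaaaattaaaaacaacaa
The last pair are stretches on either side of the core's middle, left at chrI:3766201-3766300 on the plus strand and right at chrI:3775973-3776072 on the minus strand, which are the same 100 bases read in opposite directions.
left copy: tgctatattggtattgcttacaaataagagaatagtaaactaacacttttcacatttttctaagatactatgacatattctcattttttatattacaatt
right copy: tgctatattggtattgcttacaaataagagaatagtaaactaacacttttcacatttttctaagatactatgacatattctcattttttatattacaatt

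The annotation places 7 tRNA genes, 32 long noncoding RNAs and 3 protein-coding genes in the centromere I interval. The protein-coding genes sit at the ends, with per1 (3749441 to 3751729) at the left edge and emc5 (3790924 to 3791756) and rad50 (3791753 to 3795998), a gene of the MRN DNA repair complex, at the right. A tRNA-Phe gene lies at 3752334 to 3752406 beside the left edge. The other 6 form mirrored pairs around the middle of the core. The inner pair, tRNA-Ile at 3768290 to 3768363 on the plus strand and at 3773910 to 3773983 on the minus strand, has 1 sequence.
tRNA-Ile: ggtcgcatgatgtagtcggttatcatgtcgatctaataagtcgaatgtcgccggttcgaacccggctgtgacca
The tRNA-Glu pair lies at 3765434 to 3765505 and 3776768 to 3776839, and the tRNA-Ala pair at 3765008 to 3765081 and 3777192 to 3777265. A median bin of centromere I was 69.3% A and T, against 63.7% on chromosome I as a whole, and the core reached 72.3%.

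Counts in the centromeres were first set against the 100 kb on either side within each library, which needs no scaling between libraries. Centromere III was clearly above its flanks, with a mean of 1.33-fold ± 0.158 (SD, n = 20) and a range of 1.04 to 1.62. Centromeres I and II lay close to theirs, at 1.06 ± 0.0712 (0.953 to 1.27) and 1.08 ± 0.0957 (0.916 to 1.34). Counts were above the flanks in 19 of 20 libraries for centromere I, 16 for II and 20 for III. Within WT RFB OFF, the Pol δ library stood at 1.09, 1.15 and 1.48 for centromeres I, II and III. The corresponding Pol ε libraries stood at 1.02 and 1.02 for I, 0.970 and 0.969 for II, and 1.24 and 1.24 for III. The 2 Pol ε libraries thus differed by far less than either did from the Pol δ library.

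**Figure D1:**
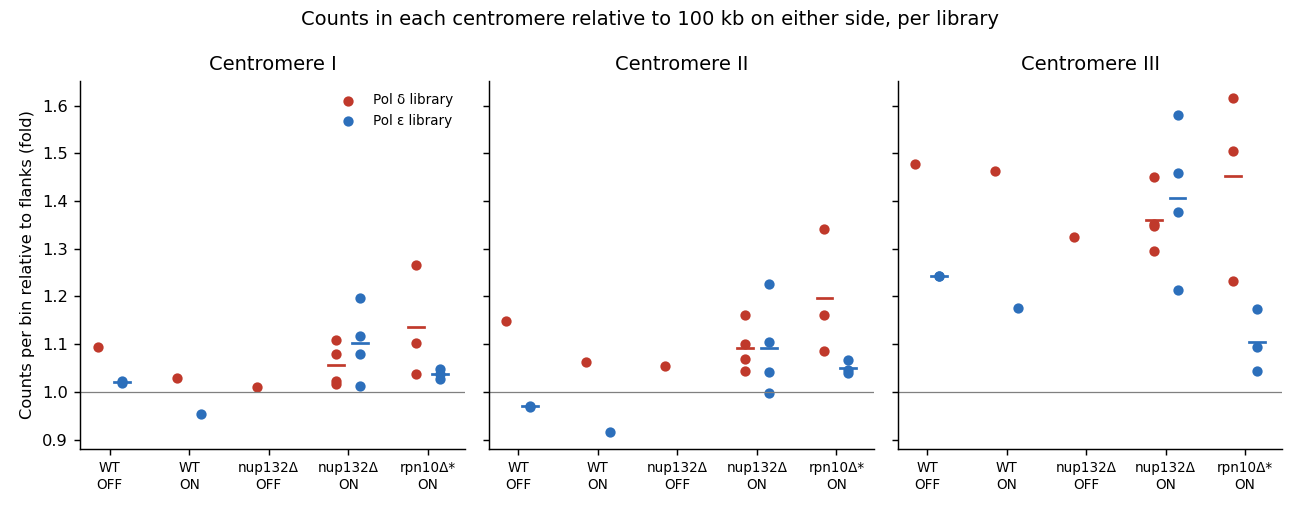
Mean counts per bin in each centromere as a fold of the mean over 100 kb on either side. Each point is a library, red for Pol δ and blue for Pol ε, short lines are group means, and the grey line marks equality with the flanks; rpn10Δ* marks the libraries labelled rpn10Δ RFB ON. Centromere III ranged from 1.04 to 1.62 and was above 1 in all 20 libraries.

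The level was not even along the centromeres. The core was taken as 3764.7 to 3777 kb (I), 1622.1 to 1631.4 kb (II) and 1090.2 to 1104.6 kb (III), where counts were low. These limits follow counts, not sequence domains. At I, 25 of the 41 core bins had only 50-mers with an inverted copy on the other side of the centromere. The stretch can thus take in inner repeats beside the central core, and low counts and fork steps were not assigned to either. At II and III this was not examined. In the core the mean fold of flanks was 0.736 ± 0.0979 (I), 0.769 ± 0.105 (II) and 0.856 ± 0.101 (III), and outside the core it was 1.20 ± 0.0900, 1.15 ± 0.104 and 1.45 ± 0.196 (SD, n = 20 each). The core was above the flanks in 0 of 20 libraries at I and II and in 1 at III. For Pol δ in WT RFB OFF, the 5-bin profile of centromere I ran from 0.607 at 3767.25 kb to 1.83 at 3750.15 kb. That of centromere II ran from 0.505 at 1631.85 kb to 2.01 at 1641.15 kb, and that of centromere III from 0.712 at 1095.75 kb to 2.56 at 1077.75 kb. Pol ε had its highest values within 1 kb of the same places (1.91, 1.82 and 2.13). Its lowest values were 0.522 at 3775.05 kb in the core of I and 0.517 at 1631.85 kb beside that of II, but at III 0.546 at 1066.05 kb on the left edge. The highest values of I lie over per1 at its left edge. The core limits were set after these profiles had been seen, so the lower core is a description.

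**Figure D2:**
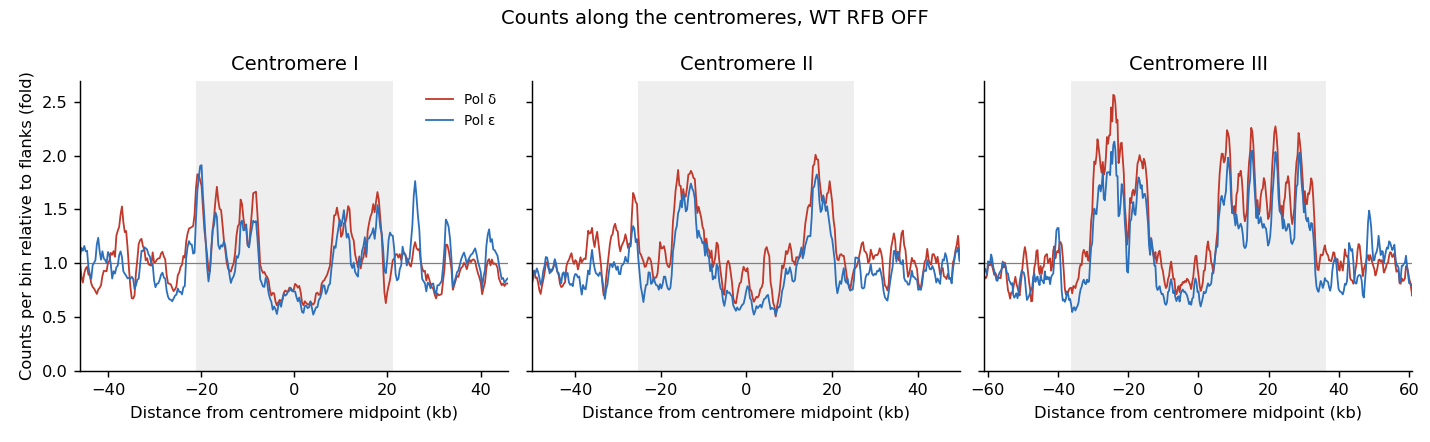
Counts per 300-bp bin of WT RFB OFF in a 5-bin running mean, as a fold of the flank mean, against the distance from the middle of each centromere interval (grey). Pol δ (red) and Pol ε (blue) are both low around the core and high at places outside it, up to 2.56 for Pol δ at centromere III, where the lowest Pol ε value (0.546) is at the left edge.

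For centromere I the level depended on whether the sequence was unique. The 13 fully unique bins, 7 at the left edge, 1 in the core and 5 at the right edge, stood at 1.18 to 1.54-fold of the flanks (median 1.34), above 1 in all 20 libraries. The 93 bins without a unique 50-mer stood at 0.896 to 1.23 (median 0.978) and were above 1 in 8. In no library were the repeated bins above the unique ones. The unique bins are mostly edge bins, so position and uniqueness cannot be told apart here.

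Pol δ and Pol ε libraries read the same DNA, and their counts were compared within each background and barrier state. On the log2 scale, Pol δ minus Pol ε was 0.04 at centromere I (exact permutation test within strata, two-sided, 8400 arrangements, p = 0.362), 0.12 at centromere II (p = 0.0356) and 0.18 at centromere III (p = 0.0388). None passed after Benjamini-Hochberg adjustment over the 3 centromeres (adjusted p = 0.362, 0.0582 and 0.0582). The differences at II and III passed with flanks of 200 kb (adjusted p = 0.0329 and 0.0402) or with medians (0.0254 for both), and when 1 nup132Δ library was left out (KK1905, KK1517 or KK1523, adjusted p = 0.00929 to 0.0464). Without KK1894 and KK1895 the differences were 0.02, 0.10 and 0.15 (adjusted p = 0.644, 0.157 and 0.157), and without KK1581 and KK1582 they were 0.01, 0.09 and 0.12 (0.711, 0.18 and 0.18). At centromere I the sign turned in the 13 fully unique bins, which are mostly edge bins (−0.10, exact permutation p = 0.0394). This p is for centromere I alone and was not adjusted over the centromeres.

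The size of this difference varied with background. At centromere III it was 0.25 in WT RFB OFF, 0.32 in WT RFB ON and 0.39 in the libraries labelled rpn10Δ RFB ON, but −0.04 in nup132Δ RFB ON. At centromere II the values were 0.25, 0.21, 0.18 and 0.00 in the same order, and at centromere I 0.10, 0.11, 0.13 and −0.06. In the libraries labelled rpn10Δ RFB ON it was 0.11, 0.16 and 0.47 (I, II, III) without KK1894 and KK1895, and 0.05, 0.11 and 0.27 without KK1581 and KK1582. The 2 polymerases did not overlap at II and III in the libraries labelled rpn10Δ RFB ON (3 of each). Leaving out either pair kept them apart there, but leaves 3 Pol δ and 1 Pol ε library, or 2 of each, too few to read. The polymerases overlapped at all 3 centromeres in nup132Δ RFB ON (4 of each). WT cannot be read this way. WT RFB ON has 1 library of each kind, which cannot overlap, and WT RFB OFF has 1 against 2. The difference between backgrounds was not tested, since WT RFB ON has 1 library of each kind.

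In 3-kb windows fitted over the whole genome, Pol δ libraries were higher than Pol ε libraries in 46 of the 53 centromere windows and lower in none (edgeR quasi-likelihood test, Benjamini-Hochberg adjusted p of at most 0.05). The background was high, with 74.5% of all 4190 windows called and 37.7% called higher. By centromere, 9 of 14, 15 of 16 and 22 of 23 windows were called. The total was 46 without KK1894 and KK1895 (75.6% of all windows) and 45 without KK1581 and KK1582 (76.4%). The median log2 difference was 0.33 in the centromere windows and 0.00 over all windows. The smallest adjusted p were those of 1644001 to 1647000 on chromosome II (log2 0.55, adjusted p = 4.8e-07), 1068001 to 1071000 on chromosome III (0.38, 5.9e-07) and 3786001 to 3789000 on chromosome I (0.37, 3.8e-06). All 3 lie in the outer parts of their centromeres.

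Differences between backgrounds in the level of a whole centromere were within the spread between libraries. nup132Δ minus WT was 0.07, 0.08 and 0.02 on the log2 scale (exact permutation test, 50 arrangements, adjusted p = 0.63, 0.63 and 0.86). The libraries labelled rpn10Δ RFB ON minus WT gave 0.13, 0.18 and −0.06 (16 arrangements, adjusted p = 0.375, 0.375 and 0.688), a comparison whose smallest possible p is 0.0625. Without KK1894 and KK1895 these were 0.14, 0.19 and −0.08 (exact permutation test, adjusted p = 0.375, 0.375 and 0.625). The highest centromere level of all 20 libraries was that of KK1581 at each centromere (1.27, 1.34 and 1.62), 1 of the libraries whose rtf1 counts go against their label. The WT RFB ON Pol ε library was the lowest at I and II (0.953 and 0.916).

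Window by window, nup132Δ RFB ON against WT RFB ON gave no called window of 53 (edgeR, with 0.0477% of all windows called). At an unadjusted p under 0.05 there were 16 of 53, against 657 of all 4190 windows (15.7%). DESeq2 called 5, or 9.43% of the centromere windows against 1.98% of all windows. In the edgeR fit the log2 change was above 0 in 14 of 14, 15 of 16 and 20 of 23 windows (I, II, III). Its median was 0.15 over the centromere windows and 0.00 over all windows. The smallest p were those of 3768001 to 3771000 on chromosome I (log2 0.34, edgeR adjusted p = 0.20), 1602001 to 1605000 on chromosome II (0.27, 0.14) and 1068001 to 1071000 on chromosome III (0.22, 0.18). WT RFB ON against WT RFB OFF also gave none (edgeR, 0% called over all windows, DESeq2 none). There 2 of 53 had an unadjusted edgeR p under 0.05, against 1.91% of all windows. For the libraries labelled rpn10Δ RFB ON against WT RFB ON, 13 of 53 were called and all 13 were higher, where 17.9% of all windows were called and 10.5% called higher. They fell as 3 of 14, 7 of 16 and 3 of 23. The count was 7 without KK1894 and KK1895 (8.47% of all windows in that fit), 8 without KK1894 alone (11.7%) and 26 without KK1868 (21.4%), 1 of these 26 lower.

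The called windows of centromere II sat at its edges and near the limits of its core. They included 1602001 to 1605000 (log2 0.54, edgeR adjusted p = 0.00061), 1647001 to 1650000 (0.46, 0.00061), 1632001 to 1635000 (0.47, 0.001), 1617001 to 1620000 (0.38, 0.0032) and 1620001 to 1623000 (0.50, 0.0037). On chromosome III the strongest was 1068001 to 1071000 near the left edge (0.42, 0.001), followed by 1101001 to 1104000 (0.30, 0.039) and 1095001 to 1098000 (0.42, 0.041) at the core. On chromosome I they were 3756001 to 3759000 (0.44, 0.025), 3768001 to 3771000 (0.36, 0.038), which holds the left tRNA-Ile gene and the unique core bin, and 3750001 to 3753000 (0.23, 0.044), which holds the 3′ part of per1 and the tRNA-Phe gene. Against nup132Δ RFB ON, 7 windows were higher and none lower (1, 5 and 1 by centromere), where 18.7% of all windows were called and 13.4% called higher, and 5 were called without KK1894 and KK1895 (8% of all windows). The 5 windows of centromere II named above were also the 5 called there in this comparison (log2 0.20 to 0.26), and the comparisons share the libraries labelled rpn10Δ RFB ON.

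The share of Pol δ on each strand (δ/(δ + ε), each library scaled to its total) was then used to read fork direction. In WT RFB OFF it was 0.570 on Watson and 0.552 on Crick over centromere I, 0.594 and 0.560 over II, and 0.577 and 0.558 over III. Over a whole centromere the strands were thus almost even. Within the centromeres they crossed many times, and where Watson was high Crick was low. In the left part of the core of centromere II, Pol δ usage was 0.269 on Watson and 0.845 on Crick, and in the right part 0.835 and 0.265.

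**Figure D3:**
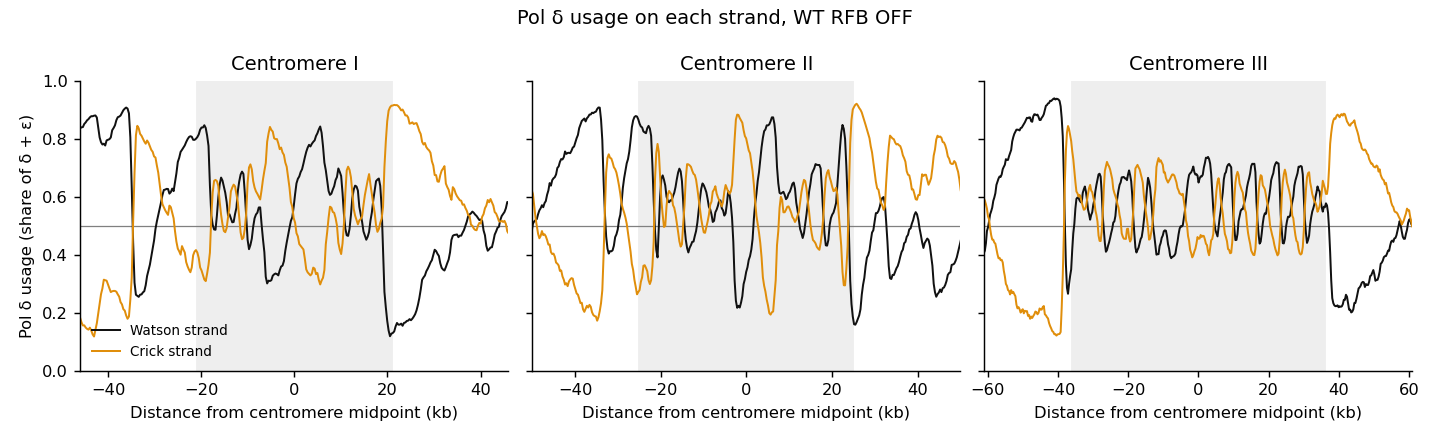
Pol δ usage in WT RFB OFF on the Watson (black) and Crick (orange) strands in a 5-bin running mean, against the distance from the middle of each centromere interval (grey). The strands mirror each other about a level slightly above 0.5, and both change sides many times within each centromere.

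Both strands lay above 0.5 together. The mean of the strands, the Pol δ bias, was 0.561, 0.577 and 0.567 in centromeres I, II and III of WT RFB OFF, against 0.543, 0.536 and 0.524 in their flanks. Exchanging the Pol ε library changed the centromere values by SDs of at most 0.00195. Of the 53 centromere windows of 3 kb, 88.7% had a bias above 0.55, against 9.79% of all windows, and the medians were 0.564 and 0.498. In WT RFB ON the 3 centromere values were 0.561, 0.572 and 0.574. In nup132Δ RFB ON they were 0.501, 0.512 and 0.501, and no centromere window was above 0.55 (0.764% of all windows). The SDs from exchanging a library were at most 0.0121 over Pol δ and 0.0252 over Pol ε libraries. In the libraries labelled rpn10Δ RFB ON they were 0.516, 0.527 and 0.558, with 43.4% of centromere windows above 0.55 against 1.07% of all windows, and 0.526, 0.537 and 0.582 without KK1894 and KK1895, with 50.9% of centromere windows above 0.55 against 5.23% of all windows. The bias restates, per strand, the count difference between Pol δ and Pol ε libraries.

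A fit of the polymerase difference per strand and 3-kb window called none of the 106 centromere values in any of 4 comparisons (edgeR, with 0, 0.0239, 0.0597 and 0% of all 8380 values called for nup132Δ against WT RFB ON, the libraries labelled rpn10Δ RFB ON against WT RFB ON and against nup132Δ RFB ON, and WT RFB ON against OFF). At an unadjusted p under 0.05 the counts were 27, 21, 32 and 0 of 106, where the shares of all values were 28.9, 51.8, 6.4 and 0.489%. DESeq2 called 2, 21, 4 and 0, where it called 2.05, 45.6, 1.03 and 0.0119% of all values. Without KK1894 and KK1895, KK1582 is the only Pol ε library labelled rpn10Δ RFB ON, so only effect sizes are given. The median log2 change of Pol δ relative to Pol ε against WT RFB ON was then −0.12 over the centromere values and 0.06 over all values. Against nup132Δ RFB ON it was 0.33 and 0.02. For nup132Δ against WT the median log2 change of Pol δ relative to Pol ε was −0.42 over the centromere values and 0.01 over all values. It was above 0 in only 3 of 28, 3 of 32 and 2 of 46 values, with a smallest adjusted p of 0.166. These counts depended strongly on KK1582, without which KK1894 and KK1895 are the only Pol ε libraries labelled rpn10Δ RFB ON. edgeR then called 25, 31 and 28 in the first 3 comparisons. KK1582 differed from that pair by a chi-square per degree of freedom of 19.0 and 18.7. The first comparison holds no library labelled rpn10Δ RFB ON and shares only the estimate of the spread with them. The calls were 23.6, 29.2 and 26.4% of the centromere values. The same fits called 42.6, 70.5 and 46.1% of all values, which is more. Without the nup132Δ Pol ε library KK1524 the second comparison gave 11 calls, or 10.4% against 28.9% of all values.

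The rightward fork share was taken as the mean of 1 minus Pol δ usage on Watson and Pol δ usage on Crick. Divided at the middle of the interval, the left and right sides of each centromere barely differed in WT RFB OFF. The share was 0.502 left and 0.479 right at centromere I, 0.508 and 0.457 at II, and 0.519 and 0.466 at III. The steps from left to right were −0.0231 ± 0.00113, −0.0513 ± 0.00313 and −0.0529 ± 0.000753 (SD over the 2 Pol ε libraries, which share 1 Pol δ library), and the means differed from 0.5 by −0.00963, −0.0178 and −0.00782. Inverted copies that share reads would bring such means towards 0.5, and their part was not tested. At I and II the steps were 0.000208 and −0.000378 when the division was moved 3 kb to the left. Over the 10 kb outside each edge the steps were 0.382, 0.283 and 0.534, the sign of forks that leave each centromere on both sides.

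At the edges themselves the direction was strong at I and II and weaker at III. In the 3 kb outside the left edge the rightward share in WT RFB OFF was 0.297 (I), 0.268 (II) and 0.574 (III), and outside the right edge 0.877, 0.837 and 0.660. The left edge of centromere III differed because its leftmost rise, from 0.097 to 0.705 at 1064.16 kb, lies outside the interval. The interval of III thus begins inside a zone whose forks had already turned, and the other edge rises lie inside the intervals. These were at 3753.95 kb (0.271 to 0.509) and 3789.32 kb (0.476 to 0.888) for I and at 1604.42 kb (0.234 to 0.541) and 1648.72 kb (0.357 to 0.854) for II. On chromosome I the left edge rise lies to the core side of the tRNA-Phe gene.

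**Figure D4:**
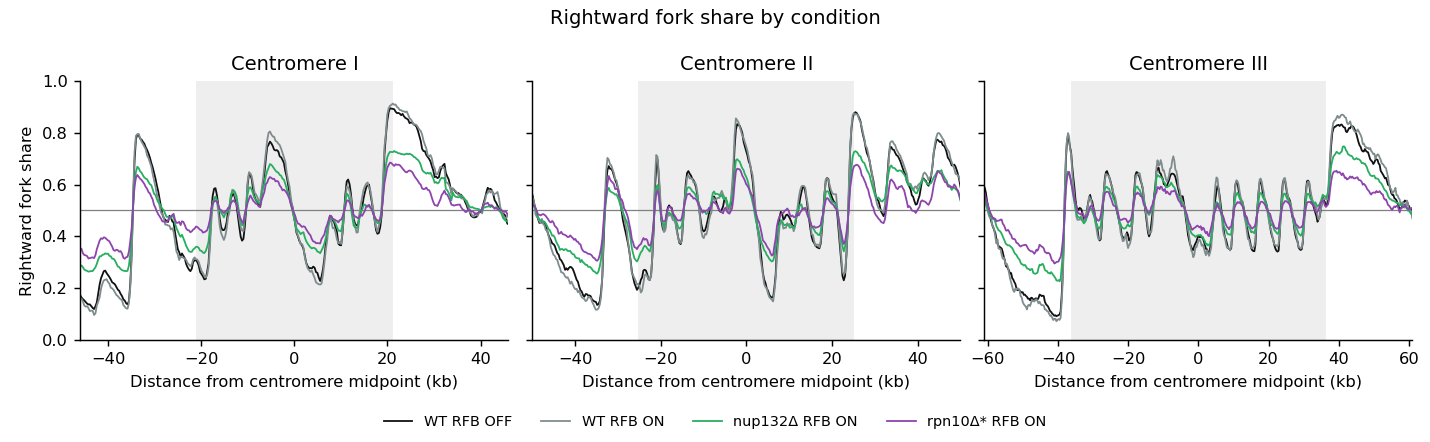
Rightward fork share in a 5-bin running mean against the distance from the middle of each centromere interval (grey), for WT RFB OFF, WT RFB ON, nup132Δ RFB ON and the libraries labelled rpn10Δ RFB ON (rpn10Δ*). Of the 22 rises of WT RFB OFF, 21, 17 and 15 have a counterpart within 1 kb in the other conditions, and the highest rise of each centromere is lower in nup132Δ (0.247, 0.291 and 0.364) and rpn10Δ* (0.196, 0.227 and 0.293) than in WT RFB OFF (0.412, 0.497 and 0.608).

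In the profile smoothed over 11 bins, the rightward share of WT RFB OFF rose through 0.5 at 6, 6 and 10 places in centromeres I, II and III (with 3 kb on either side) and fell through it at 5, 5 and 9. Rises had median sizes of 0.130, 0.209 and 0.194. The largest fall of each centromere was the one in the core, −0.41 at I, −0.58 at II and −0.25 at III. Most WT RFB OFF turns had a counterpart within 1 kb in the other conditions. In WT RFB ON, 21 of 22 rises and 18 of 19 falls were matched, in nup132Δ RFB ON 17 and 15, and in the libraries labelled rpn10Δ RFB ON 15 and 12. Without KK1894 and KK1895 the latter were 20 and 17, and the highest rises were 0.319, 0.414 and 0.490, above those of nup132Δ. These values rest on KK1582 as the only Pol ε library, whose rtf1 counts go against its RFB ON label. A turn that no longer crosses 0.5 is counted as unmatched, so lower height alone lowers these counts.

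The right arm of centromere III held a regular series. Rises followed each other at 1112.40, 1119.21, 1125.91 and 1132.69 kb in WT RFB OFF, 6.80, 6.70 and 6.78 kb apart. The sizes of these rises were 0.195, 0.198, 0.207 and 0.192. The spacing was 6.66 to 6.90 kb in WT RFB ON, 6.75 to 6.83 kb in nup132Δ and 6.75 to 6.76 kb in the libraries labelled rpn10Δ RFB ON (6.64 to 6.82 kb without KK1894 and KK1895). Repeated copies that share reads would give such likeness, and their part in it was not tested.

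The arms were mirror images of each other about a point in the core. Over 55 bin pairs, reaching 16.5 kb to either side, the rightward share of one arm and the reversed share of the other correlated at r = 0.972 (I, centre 3771.15 kb), 0.937 (II, 1626.9 kb) and 0.976 (III, 1097.7 kb) in WT RFB OFF. The correlation is across neighbouring bins, which are not independent, and the centre was the one of best fit. In the other conditions r was 0.917 to 0.981. The counts mirrored as well, with r of 0.958, 0.924 and 0.961 on the log2 scale in WT RFB OFF. The centre from sequence alone, the median midpoint of inverted 50-mer pairs on chromosome I, was 3771.14 kb. The arms of I share sequence, as the copies printed above show, so mapping could contribute to the mirror and its part was not tested.

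The fork share turned from rightward to leftward across the core of each centromere, the sign of forks that converge. In the left part of the low-count core the rightward share in WT RFB OFF was 0.729 (3764.7 to 3769.2 kb, I), 0.788 (1622.1 to 1625.4 kb, II) and 0.628 (1090.2 to 1095.9 kb, III). In its right part the share was 0.279 (3772.5 to 3777 kb), 0.215 (1628.1 to 1631.4 kb) and 0.377 (1098.9 to 1104.6 kb). The step across the core was therefore −0.450 ± 0.00498, −0.573 ± 0.000301 and −0.252 ± 0.0147 (SD over the 2 Pol ε libraries). WT RFB ON gave −0.501, −0.602 and −0.304. These windows were set after the profiles had been seen, and the WT steps are a description.

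The profile crossed 0.5 at 3770.67 kb (I), 1627.21 kb (II) and 1097.88 kb (III) in WT RFB OFF. It crossed at 3770.86, 1627.16 and 1097.81 kb in WT RFB ON, at 3770.54, 1626.86 and 1097.85 kb in nup132Δ RFB ON, and at 3770.81, 1627.23 and 1097.99 kb in the libraries labelled rpn10Δ RFB ON (3770.48, 1627.20 and 1097.49 kb without KK1894 and KK1895). Computed from any 1 Pol δ with any 1 Pol ε library, the nup132Δ RFB ON point ranged from 3770.11 to 3771.01, 1626.60 to 1627.09 and 1097.43 to 1098.46 kb. The WT RFB OFF points lie within these ranges at I and III and above the range at II. On chromosome I all 4 points fall between the tRNA-Ile genes.

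Single libraries show the same change across the core before any ratio is taken. The Watson share of counts in the right part of the core minus that in the left part was positive in each of the 10 Pol δ libraries at each centromere. At centromere I it was 0.388 in WT RFB OFF, 0.423 in WT RFB ON, 0.447 in nup132Δ RFB OFF, 0.200, 0.202, 0.215 and 0.367 in nup132Δ RFB ON, and 0.207, 0.291 and 0.351 in the libraries labelled rpn10Δ RFB ON. The Pol ε libraries were negative, at −0.518 and −0.532 in WT RFB OFF, −0.586 in WT RFB ON and −0.157 to −0.477 in nup132Δ RFB ON. Among the libraries labelled rpn10Δ RFB ON, KK1582 stood at −0.497 but KK1894 and KK1895 at 0.0399 and 0.0479, on the side of Pol δ.

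At centromere II the Pol δ values were 0.666 in WT RFB OFF, 0.673 in WT RFB ON and 0.678 in nup132Δ RFB OFF, against 0.416 to 0.576 in nup132Δ RFB ON. The Pol ε values were −0.484 and −0.482 in WT RFB OFF and −0.527 in WT RFB ON, against −0.0443 to −0.346 in nup132Δ RFB ON. In the latter the Hygro-marked KK1905 and KK1906 stood at −0.0589 and −0.0443, and the unmarked KK1524 and KK1523 at −0.346 and −0.246. All nup132Δ RFB ON libraries lay closer to 0 than the WT libraries of their polymerase. At centromere III the Pol δ libraries of nup132Δ RFB ON (0.291 to 0.421) overlapped WT (0.375 and 0.411), as did the Pol ε libraries (0.0297 to −0.152 against −0.105 to −0.195). KK1894 and KK1895 stood at 0.224 and 0.210 at II and at 0.192 and 0.171 at III.

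**Figure D5:**
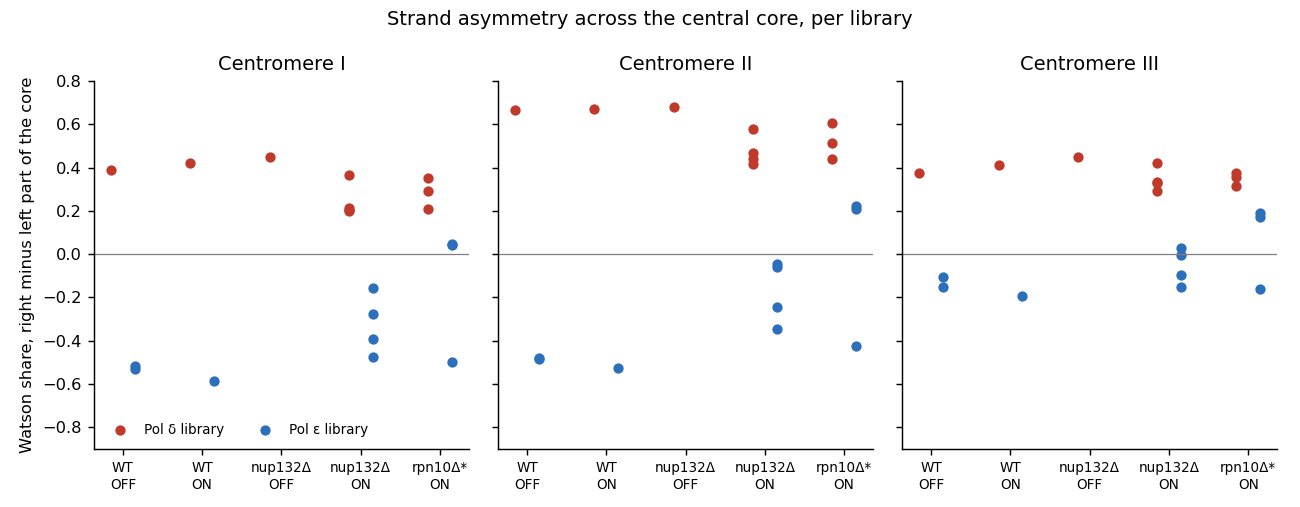
Watson share of counts in the right part of the core minus that in the left part, 1 point per library (Pol δ red, Pol ε blue), by background and barrier state; rpn10Δ* marks the libraries labelled rpn10Δ RFB ON. Pol δ points are above 0 throughout, and the Pol ε points of rpn10Δ* above 0 are KK1894 and KK1895.

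The step across the core was smaller in nup132Δ RFB ON, at −0.284, −0.333 and −0.203, than in WT RFB ON. The differences from WT were 0.217, 0.269 and 0.100. In an exact permutation test over Pol δ and Pol ε libraries (two-sided, 25 arrangements) p was 0.04, 0.04 and 0.12, where 0.04 is the smallest p this design can give, and the adjusted p were 0.06, 0.06 and 0.12. In the libraries labelled rpn10Δ RFB ON the step was −0.204, −0.273 and −0.142. The differences from WT were 0.297, 0.329 and 0.162, each with an exact permutation p of 0.0625, the smallest that 16 arrangements allow. Without KK1894 and KK1895 they were 0.103, 0.121 and 0.0435 (adjusted p = 0.25). With a single WT RFB ON pair the comparison with the libraries labelled rpn10Δ RFB ON could not pass after adjustment, whatever the values.

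Lower steps went with lower strand asymmetry over the whole genome. Relative to WT RFB OFF, the slope of the rightward share was 1.03 in WT RFB ON, 0.623 in nup132Δ RFB ON, 0.466 in the libraries labelled rpn10Δ RFB ON, and 0.813 in the latter without KK1894 and KK1895. After scaling by this slope, the difference in core step between nup132Δ and WT was 0.0315, 0.0510 and −0.0307 (exact permutation test, adjusted p = 0.52 for each). For the libraries labelled rpn10Δ RFB ON it was 0.0490, −0.000381 and −0.00866 (adjusted p = 1 for each). The step between the sides of the intervals did not separate the backgrounds either, with nup132Δ minus WT at −0.00728, −0.00835 and 0.0109 (adjusted p = 0.8 for each) and the libraries labelled rpn10Δ RFB ON minus WT at 0.00642, 0.0140 and 0.0158 (adjusted p = 0.938 for each).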

How the data were processed

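Counts were those deposited by the authors, as whole numbers of read ends in 300-bp bins, separately for each strand. Per the labels and methods, DNA was digested with RNase H2 and size-selected, and Bowtie2 aligned the reads. The genome build and the handling of reads with several matches are not given in the sources used here. The centromere bins, gene and window lists were chosen with earlier results of these data known. Libraries with a mean under 10 counts per bin were left out (3 of 23). Replicates of a group differed by more than sampling noise (chi-square per degree of freedom 1.45 to 19.0). Counts relative to 100 kb on either side and fork measures were compared by exact permutation in Python 3.11.15 (numpy 2.4.6, scipy 1.17.1). Genome-wide 3-kb windows (mean count 10 or more) were fitted in R 4.3.3 with edgeR 4.0.16 (TMM, quasi-likelihood), and DESeq2 1.42.0 was an alternative. The edgeR fit and the usage calculation were tested on simulated data, and DESeq2 was not. The threshold was an adjusted p of 0.05. Named windows were those with the smallest adjusted p per comparison and centromere, at most 5, or the 1 with the smallest p where none passed. Sequences and features are from RefSeq ASM294v3. The core windows and the core step were added after the data had been seen.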

Additional observations from a re-analysis of the deposited data

Results flagged for a closer look

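Of 42 sets of 4 libraries tested for a single library far from the others, 1 was flagged, where chance flags about 1 in 20. The Watson share in the right part of the core of centromere I in nup132Δ RFB ON Pol δ libraries was 0.670 in KK1517 (replicate 4). The other 3 lay between 0.592 and 0.599, so the gap was 0.902 of the range. KK1517 also had the steepest genome-wide strand asymmetry of these 4 libraries (0.375 against 0.249 to 0.311).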

How the results depend on the processing

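Repeats and the single WT libraries are the main limits. Most of each centromere is repeated, and only on chromosome I could unique bins be told apart. Centromere bins held at least 31 counts, so counting error is small beside the spread between libraries. Under the other settings 179 values kept direction and side of the threshold (or moved by less than the replicate spread), 45 moved by more, 11 newly passed the threshold and 43 changed sign. The cause of a change was not tested except where a setting's construction gives it. No paired analysis was possible because the labels give no replicate number that pairs libraries across groups.

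Counts relative to flanks (log2, centromere I, II or III). Pol δ minus Pol ε was 0.154 (II) and 0.193 (III) with flanks of 200 kb, and 0.126 (II) and 0.217 (III) with medians. At I it was −0.0956, −0.0967 and −0.101 over bins with unique 50-mers, 36-mers and 100-mers, where the level itself was 0.416, 0.415 and 0.349 and nup132Δ minus WT was −0.00419 and −0.00264 for 50-mers and 36-mers. nup132Δ minus WT at III was −0.00125 with flanks of 50 kb and −0.0295 with medians. With the libraries of at most 7167 counts included, which give mostly counting error, Pol δ minus Pol ε was −0.0342 at II. With them nup132Δ minus WT was −0.105, 0.401 and −0.0383, and rpn10Δ minus WT was 0.190, 0.323 and 0.0130 (exact permutation test, adjusted p = 0.0356 for nup132Δ at II and 0.0375 for rpn10Δ at I and II).

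Step between the sides of the interval in WT RFB OFF (I, II, III). It was −0.00367, −0.0567 and −0.0906 with the shallow libraries, and −0.0702 and −0.0658 (I and II) with usage averaged per bin. With the division 3 kb to the left it was 0.000208, −0.000378 and −0.0656, and 3 kb to the right −0.000359, −0.0661 and −0.0412. Over 10 kb outside each edge it was 0.382, 0.283 and 0.534. WT RFB ON gave −0.0326, −0.0431 and −0.0507. The mean rightward share minus 0.5 was −0.0141 (I) and −0.0163 (III) with the shallow libraries, and −0.00330, −0.0146 and −0.00406 with usage averaged per bin. It was −0.00571 (III) with the division to the left, −0.0205 (II) to the right, and 0.108, 0.0486 and 0.000330 outside the edges.

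Difference of this step from WT. For nup132Δ it was 0.0532, 0.0280 and −0.0192 with the shallow libraries, 0.00442 (II) in the Hygro-marked deletions, 0.0187 and 0.00582 (I and II) with usage averaged per bin, −0.0146 (III) after scaling by genome-wide asymmetry, 0.00162 (II) with the division to the right, and −0.218 (III) outside the edges. For rpn10Δ it was −0.0143 (III) with the shallow libraries, −0.00911, −0.00931 and −0.00475 without KK1894 and KK1895 and −0.0245, −0.0206 and −0.0256 after scaling. It was −0.00712 and −0.0141 (I and II) with the division to the left, −0.00718 (I) to the right, and −0.248, −0.183 and −0.358 outside the edges.

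Step across the core. In WT RFB OFF it was −0.0646, −0.510 and −0.293 with the shallow libraries, −0.457 and −0.580 (I and II) when scaled to the flanks, −0.575 (II) with usage averaged per bin, and −0.501, −0.602 and −0.304 in WT RFB ON. With the shallow libraries the difference from WT was 0.309 and 0.337 (I and II) for nup132Δ (adjusted p = 0.02) and 0.389 and 0.398 for rpn10Δ (0.0375). After scaling by genome-wide asymmetry it was −0.0307 (III) for nup132Δ and −0.000381 and −0.00866 (II and III) for rpn10Δ.

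Counts of centromere windows. Shares of all windows in the same fit follow in brackets. DESeq2 gave 5 (1.98%) for nup132Δ against WT RFB ON and 11 (25.8%) for rpn10Δ against nup132Δ in total counts, and 2, 21 and 4 per strand (2.05, 45.6 and 1.03%). Windows of 1.5 kb gave 29 (12.4%) for rpn10Δ against WT, 22 (9.03%) against nup132Δ and 89 (67.6%) between polymerases, of 108 windows. The Hygro-marked rpn10 deletions alone gave 20 and 13 in total counts (36.6 and 42.9%) and 31 and 21 per strand (72.3 and 48.9%), against WT and nup132Δ. Without KK1894 and KK1895 the count against WT was 7 (8.47%).

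Leaving out 1 library at a time, Pol δ minus Pol ε ranged from 0.0136 to 0.0643, 0.0899 to 0.147 and 0.139 to 0.213 (log2; I, II, III), and nup132Δ minus WT at III from −0.00873 (without KK1523) to 0.0376. Centromere windows ranged from 8 to 26 for rpn10Δ against WT and from 5 to 12 against nup132Δ, and per strand from 0 to 25 (nup132Δ against WT), 0 to 31 (rpn10Δ against WT) and 0 to 28 (rpn10Δ against nup132Δ). Against nup132Δ, the counts were 12 without KK1868 and 11 without KK1581 or KK1523.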
